A study of Mus musculus with 4 samples.

Results

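MHC class II genes encode the proteins that present peptides from outside the cell to CD4+ T cells. The 7 genes described here are H2-Aa, H2-Ab1 and H2-Eb1, which encode chains of the surface molecules, Cd74, which encodes the invariant chain, H2-DMa and H2-DMb1, which encode the peptide-loading molecule H2-DM, and Ciita, which encodes the transactivator of the class II promoters. They are 7 of the 27998 genes counted in each library. They were chosen by measured values of these same cells, namely the share of cells with 2 or more of the 7 genes detected, by genotype and by cell class. Their levels by genotype and class are therefore given as a description, with no test.

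Professional antigen-presenting cells (dendritic cells, macrophages and B cells) carry class II constantly. Epithelial cells of the small intestine also carry it, and interferon-gamma raises it by inducing Ciita. Ciita does not bind DNA itself: it is recruited by the RFX, CREB and NF-Y factors that sit on the X and Y boxes of class II promoters. The alpha and beta chains pair in the endoplasmic reticulum with the invariant chain, which blocks the groove until cathepsins cut it away in endosomes, where H2-DM then exchanges its last fragment for peptide.

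The study asked what loss of the amino acid transporter SLC7A5 does to the crypts, the pockets of the small intestine that hold stem, Paneth and dividing cells. From crypts of mice aged 8 weeks, live EpCAM+ CD45- cells were sorted and their RNA was read with a 10x Genomics 3′ kit. The labels give 2 libraries as slc7a5 fl/fl and the other 2 as slc7a5 IEC-KO. The IEC-KO mice carried floxed Slc7a5 alleles and a villin-Cre transgene, which is active throughout the intestinal epithelium. The fl/fl mice were littermates with the same floxed alleles and no Cre, and villin-Cre had been crossed back to C57BL/6J. The records name 4 mice and do not tie them to libraries, so the spread between libraries may be partly technical.

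The fl/fl libraries held 3633 and 3217 cells with medians of 22242 and 32549 UMIs (unique molecular identifiers, each standing for 1 captured transcript), and the IEC-KO libraries held 10004 and 9644 cells with medians of 6699.5 and 9717.5. The lowest cell of each library had between 3843 and 9670 UMIs, and any pair of libraries shared 14 to 132 barcodes. Levels are given in CPM, the UMIs of a gene per 1000000 UMIs of the same cells. Slc7a5 stood at 1.23 and 1.07 CPM in the libraries labelled fl/fl and at 3.98 and 4.84 in those labelled IEC-KO. A 3′ tag outside the deleted part of the gene checks nothing about the deletion, so genotypes are given as labelled. Epcam was found in every class at 164 to 1475 CPM, while Ptprc, which encodes CD45, was between 0 and 1.42 CPM outside tuft-like cells and reached 10.2 there.

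Cells were divided by the share of their UMIs that came from Defa genes, the alpha-defensins that Paneth cells store in granules. Cells at 30% or more were taken as Paneth cells (4109 in fl/fl and 5952 in IEC-KO libraries). Cells under 20% were clustered without the class II genes and without defensins, and clusters were named from markers or by their leading pair of genes. This gave 1022 and 3307 goblet-like cells, 877 and 2172 TA-like cells (transit-amplifying, the dividing progenitors), 337 and 777 enterocyte-like cells, 24 and 155 enteroendocrine-like cells and 39 and 213 tuft-like cells, in fl/fl and IEC-KO libraries. Another 277 and 4022 cells were left unnamed, 165 and 1721 lay between 20% and 30%, and a Paneth-like cluster with low Defa held 1329 cells, none of them from fl/fl libraries. Markers were high in the classes named for them: Mki67 was at 117 to 149 CPM in TA-like cells, Fabp1 at 6861 to 9312 in enterocyte-like cells, Dclk1 at 213 to 322 in tuft-like cells and Muc2 at 6217 to 7150 in goblet-like cells. Muc2 alone does not set goblet-like cells apart. In IEC-KO libraries it was also at 6709 and 6660 in unnamed cells and at 5828 and 6106 in the Paneth-like cluster.

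All 7 genes were detected, with 160951 UMIs in 26498 cells. Cd74 alone gave 54.4% of these UMIs and H2-Ab1 23.7%, followed by H2-Aa with 8.09%, H2-Eb1 with 7.05%, H2-DMb1 with 3.51% and H2-DMa with 3.20%. Ciita was near the limit of detection, with 175 UMIs in 174 cells. Each UMI marks the 3′ end of 1 transcript, so no scaling by gene length was made.

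Of the 7 genes, 5 lie within 197 kb of chromosome 17 (GRCm38, 34119541 to 34316674). H2-Aa is at chr17:34282744-34287823 on the minus strand, and H2-Ab1 (chr17:34257689-34269419) and H2-Eb1 (chr17:34305867-34316674) are on the plus strand. The genes of the loading molecule, H2-DMa (chr17:34119541-34139101) and H2-DMb1 (chr17:34153072-34160230), lie upstream of them on the plus strand. Exons of H2-DMa overlap exons of Brd2 on the other strand, and those of Ciita (chr16:10480059-10528418) overlap Dexi. H2-DMb1 shares a stretch of 221 bases with H2-DMb2, for which only 7 UMIs were counted, so reads that fit both could affect the counts of either.

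The promoters of 3 members are shown because Ciita acts through the X and Y boxes, whose letters can be searched in them. The sequences are from RefSeq (GRCm38.p6), whose promoter table matched 4 of the members, and cover 120 bases that end 31 bases before the start of the gene in RefSeq. For H2-DMb1 that start lies within the gene as GENCODE places it, and so does part of the stretch shown. Capitals mark a match to CTNGNAAC, used here for the X box, and the match to TGATTGG, used for the Y box, that follows it. These letters were chosen with the sequences in view, and both strands were searched.
H2-Aa (chr17:34287854-34287973, minus strand): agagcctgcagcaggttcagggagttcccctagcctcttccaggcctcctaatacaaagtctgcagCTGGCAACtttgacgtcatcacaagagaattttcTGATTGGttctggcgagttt
H2-Eb1 (chr17:34305717-34305836, plus strand): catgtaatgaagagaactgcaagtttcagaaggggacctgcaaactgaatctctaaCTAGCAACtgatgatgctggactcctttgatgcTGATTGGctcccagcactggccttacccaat
H2-DMb1 (chr17:34153041-34153160, plus strand): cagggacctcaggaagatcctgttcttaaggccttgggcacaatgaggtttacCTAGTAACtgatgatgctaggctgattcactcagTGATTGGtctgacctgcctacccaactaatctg

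The X letters alone were found in 13.2% of 32851 promoters of 300 bases and the Y letters alone in 7.82%. An X match followed by a Y match within 40 bases was found in 31 promoters, or 0.0944%. H2-DMa, the fourth member matched, did not hold the pair in its window, which says only that these letters are not there.

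Summed over the 7 genes and set against all UMIs, enterocyte-like cells had the highest class II level of the named classes in every library. Paneth cells had the lowest on this scale, which counts their defensin UMIs. The sums were 1263 and 962 (fl/fl) and 1770 and 1575 CPM (IEC-KO) in enterocyte-like cells, and 999 and 951 and then 1270 and 1121 in TA-like cells. Goblet-like cells stood at 570 and 528 in fl/fl and at 467 and 452 in IEC-KO libraries, and Paneth cells at 146 and 137 and at 222 and 226. Cells between 20% and 30% Defa stood at 822 and 773 in fl/fl and at 509 and 530 in IEC-KO libraries. Unnamed cells stood at 1031 and 963 and at 878 and 785. The order of enterocyte-like and TA-like cells was close in the second fl/fl library, where their sums were 962 and 951.

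**Figure D1:**
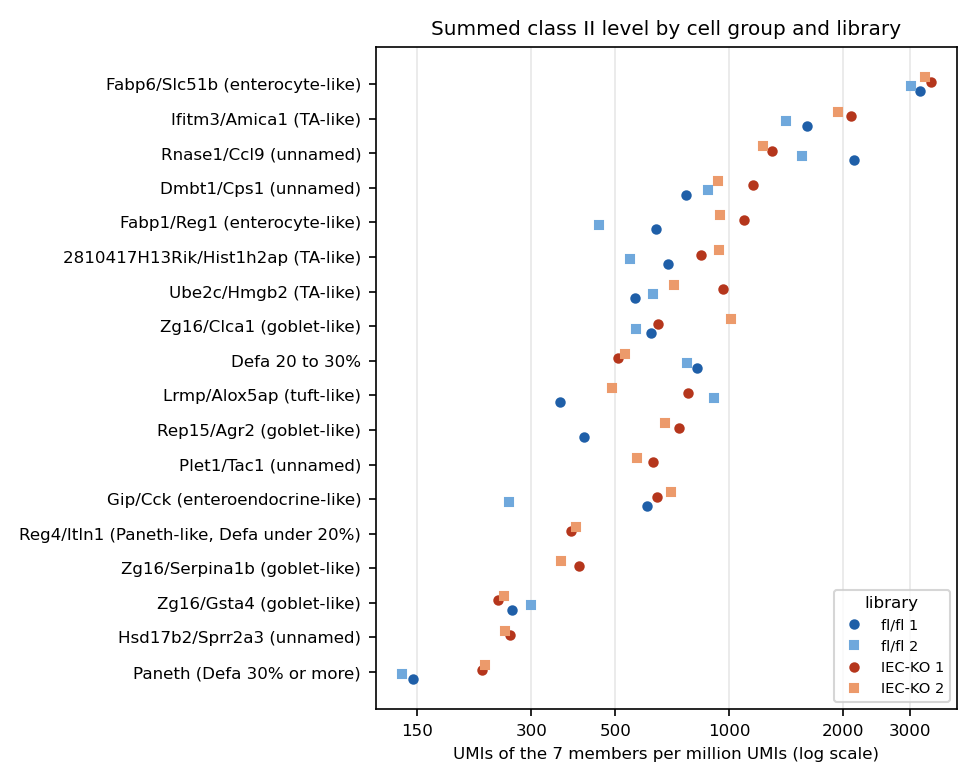
Summed level of the 7 class II genes in CPM, on a log axis, for each class or cluster (1 point per library, blue for fl/fl and red for IEC-KO). The enterocyte-like cluster led by Fabp6 and Slc51b lies highest in all 4 libraries, between 3009 and 3397. Paneth cells lie lowest among the named classes on this scale, which counts defensin UMIs.

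Within these classes the level was uneven. The highest sums were in an enterocyte-like cluster led by Fabp6, which encodes the ileal bile acid-binding protein, and Slc51b, a subunit of the bile acid exporter: 3179 and 3009 CPM in fl/fl and 3397 and 3275 in IEC-KO libraries. This cluster held 1.3%, 1.0%, 1.2% and 1.0% of the cells of the libraries and 5.9%, 4.2%, 5.4% and 4.2% of their class II UMIs. The other enterocyte-like cluster, led by Fabp1 and Reg1, had 640 and 453 CPM in fl/fl and 1092 and 946 in IEC-KO libraries. The 2 clusters did not overlap in any library, and the IEC-KO libraries were above the fl/fl libraries in both.

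Among the TA-like clusters the one led by Ifitm3 and Amica1 was high, at 1607 and 1408 CPM in fl/fl and 2097 and 1931 in IEC-KO libraries. Its 9 stem cell markers summed to 541 and 520 CPM in fl/fl and to 473 and 528 in IEC-KO libraries, against 206 to 288 in the other TA-like clusters, and their part in the class II level was not tested. An unnamed cluster led by Rnase1 and Ccl9 ran the other way, at 2129 and 1560 in fl/fl and 1293 and 1229 in IEC-KO libraries, but it held only 35 and 19 fl/fl cells. The goblet-like cluster led by Zg16 and Gsta4 was at the low end, at 266 and 300 and at 245 and 254.

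A cell was next scored as positive when 2 or more of the 7 genes were detected, after every cell had been thinned to 3500 UMIs. In Paneth cells the share was 7.23% and 6.98% in fl/fl libraries (95% exact binomial intervals 6.16 to 8.42% and 5.90 to 8.18%) and 12.9% and 13.7% in IEC-KO libraries (11.7 to 14.2% and 12.5 to 15.0%). In TA-like cells it was 41.7% and 39.9% against 53.4% and 52.8%. In enterocyte-like cells it was 43.6% and 42.3% against 57.6% and 56.9%. In these 3 classes the libraries of the genotypes did not overlap and IEC-KO was higher. Within enterocyte-like cells the Fabp6 cluster overlapped, at 91.3% and 93.5% against 92.6% and 94.6%. The Fabp1 cluster was at 28.2% and 28.8% against 43.6% and 43.2%. The Fabp6 cluster made up 24.5% and 20.8% of the class in fl/fl and 28.6% and 26.6% in IEC-KO libraries. The difference (IEC-KO minus fl/fl) of 14.3 percentage points in enterocyte-like cells turned to -2.04 when classes were set by marker sums instead of clusters, and without thinning it was -0.81 in TA-like and -1.95 in enterocyte-like cells.

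Thinning sets the total of UMIs equal, not the UMIs left for genes other than defensins. These other genes took 31.7% and 29.3% of the UMIs of Paneth cells in fl/fl libraries and 48.7% and 47.8% in IEC-KO libraries, and 90.1 to 96.0% in goblet-like, TA-like and enterocyte-like cells. With each cell thinned to 2000 UMIs of genes other than defensins, a setting added once the data had been seen, the share in Paneth cells was 16.6% and 15.2% in fl/fl (95% exact binomial intervals 15.0 to 18.3% and 13.7 to 16.8%) and 16.3% and 16.3% in IEC-KO libraries (15.0 to 17.7% and 15.1 to 17.7%), with 11 and 2 IEC-KO cells left out. The Paneth libraries of the genotypes then overlapped. On the same setting the share was 31.1% and 27.6% against 39.6% and 36.7% in TA-like cells, 37.2% and 24.8% against 48.5% and 47.7% in enterocyte-like cells and 20.3% and 19.3% against 16.4% and 15.6% in goblet-like cells, with no overlap in any of the 3.

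Goblet-like cells, unnamed cells and cells between 20% and 30% Defa went the other way. Between 20% and 30% Defa the share was 47.6% and 43.4% in fl/fl and 27.4% and 31.2% in IEC-KO libraries. In unnamed cells it was 46.5% and 48.4% against 41.8% and 40.5%. The cluster led by Dmbt1 and Cps1 held 76.1% and 84.4% of unnamed cells in fl/fl and 10.9% and 16.8% in IEC-KO libraries. In goblet-like cells the share was 34.1% and 35.6% in fl/fl and 27.5% and 27.8% in IEC-KO libraries. The difference of -7.18 percentage points turned to 1.93 with 1 lower limit of 9670 UMIs for all libraries. That limit left 345 and 435 goblet-like cells in fl/fl but only 57 and 171 in IEC-KO libraries. Different clusters made up this class: the cluster led by Zg16 and Clca1 held 84.7% and 86.0% of goblet-like cells in fl/fl and 1.4% and 1.9% in IEC-KO libraries, where clusters led by Rep15 and Agr2 (33.8% and 34.8%), by Zg16 and Gsta4 (35.4% and 29.9%) and by Zg16 and Serpina1b (29.4% and 33.4%) held most cells. In the cluster with Gsta4, which both genotypes filled, the shares were 15.6% and 22.6% in fl/fl and 13.4% and 15.5% in IEC-KO libraries. The summed class II level did not fall in every cluster: it was 414 and 288 CPM in fl/fl (13 and 8 cells) and 736 and 678 in IEC-KO libraries in the Rep15 cluster, and 620 and 566 against 650 and 1007 (25 and 30 IEC-KO cells) in the Clca1 cluster. In the Gsta4 cluster the sum was lower in IEC-KO libraries, while H2-Aa (14.1 and 9.57 against 11.9 and 16.9 CPM) overlapped and H2-Eb1 (11.6 and 9.57 against 12.2 and 15.2) was higher, on 9 and 6 UMIs in fl/fl libraries. The difference at the level of the class thus compares goblet-like cells of different clusters.

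**Figure D2:**
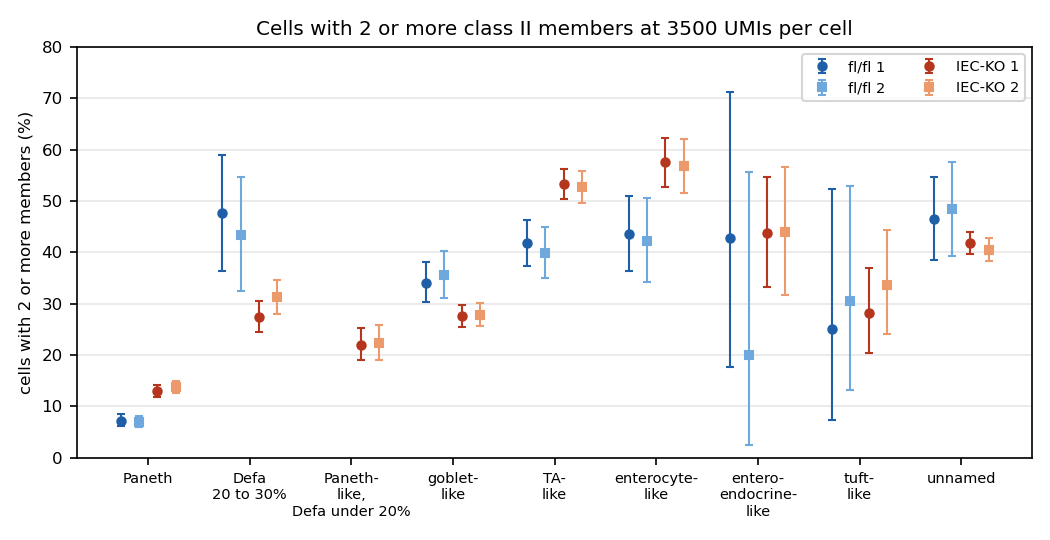
Share of cells (%) with 2 or more of the 7 genes detected at 3500 UMIs per cell, by class, with 1 point per library and exact binomial 95% intervals as bars. At this total, which counts defensin UMIs, IEC-KO libraries lie above fl/fl libraries in Paneth, TA-like and enterocyte-like cells. They lie below them in goblet-like cells, unnamed cells and cells between 20% and 30% Defa. Goblet-like and unnamed cells of the genotypes fell into different clusters.

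The share depended on depth. Without thinning it was 87.9% and 88.8% of Paneth cells in fl/fl and 55.5% and 73.5% in IEC-KO libraries, the reverse of the order at 3500 UMIs, where unthinned median UMIs of these cells were 45862 and 52128 against 12548.5 and 18370. In goblet-like cells it was 68.7% and 76.6% against 41.8% and 56.5%. Small classes gave no firm order: enteroendocrine-like cells had 42.9% and 20.0% (14 and 10 cells) against 43.8% and 43.9%, and tuft-like cells 25.0% and 30.4% (16 and 23 cells) against 28.1% and 33.7%.

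No class is known to lack these genes, so no class gives a background for free RNA. The Paneth product Lyz1 shows how much free RNA there can be: it was at 14265 to 35897 CPM in Paneth cells and still at 2782 to 8428 in goblet-like, TA-like and enterocyte-like cells. Its level outside Paneth cells was higher in fl/fl libraries. The part of free RNA in the class II shares, and in the tests of other genes given below, was not tested.

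Cells under 20% Defa with UMIs of both Ccl9, a chemokine gene, and Mt3, a metallothionein gene, were few (111 and 74 in fl/fl, 491 and 488 in IEC-KO libraries). Of these, 52.3% and 32.4% in fl/fl and 48.9% and 52.0% in IEC-KO libraries had 2 or more class II genes, against 38.1%, 39.6%, 37.6% and 36.9% of the other cells under 20% Defa. The share was higher with both genes in 3 of the 4 libraries and lower in the second fl/fl library.

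Paneth cells were also split by the part of their UMIs that Defa genes took, which leaves fewer UMIs for other genes as it grows. At 30 to 35% Defa it was 43.5% and 34.2% in fl/fl and 20.9% and 22.8% in IEC-KO libraries, and at 50 to 60% it was 5.55% and 4.87% against 8.52% and 10.1%. The order of the genotypes differed between these bins, though the first held only 38 cells in the second fl/fl library, with an interval of 19.6 to 51.4%. Between neighbouring bins the share did not always fall: it was 38.5% at 35 to 40% in the second fl/fl library and 9.45% at 60 to 70% in the first IEC-KO library. Most fl/fl Paneth cells lay above 50%. Just outside the limit, at 29 to 30%, 30.0% of 200 cells had 2 or more genes, and just inside, at 30 to 31%, 24.5% of 188 cells.

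**Figure D3:**
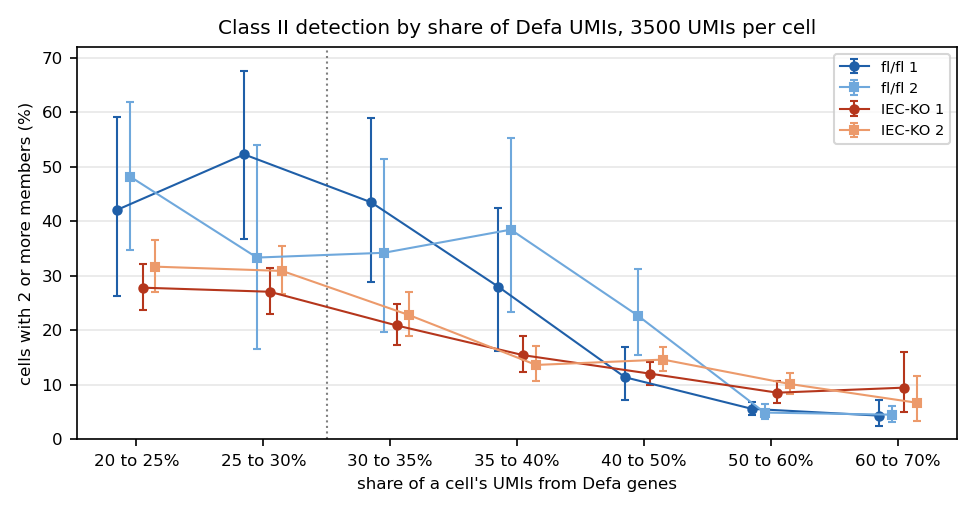
Share of cells (%) with 2 or more class II genes at 3500 UMIs per cell against the share of a cell's UMIs from Defa genes, with 1 line per library, exact binomial 95% intervals and a dotted line at the limit for Paneth cells. The shares are lower at 50 to 60% than at 30 to 35% in all 4 libraries, and fl/fl lies above IEC-KO at 30 to 35% and below it at 50 to 60%.

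The scale decides how the Paneth level reads. Against all UMIs the sum over the 7 genes was 146 and 137 CPM in fl/fl and 222 and 226 CPM in IEC-KO libraries. Against the UMIs of genes other than defensins, scaled in the same way, it was 461 and 466 in fl/fl and 456 and 473 in IEC-KO libraries. On this second scale the genotypes overlapped. Paneth cells were also not the lowest there in any library. Tuft-like cells were at 383 in the first fl/fl library (16 cells) and enteroendocrine-like cells at 285 in the second (10 cells). The Paneth-like cluster was at 432 and 451 in IEC-KO libraries. Goblet-like cells were at 629 and 586 in fl/fl and at 489 and 480 in IEC-KO libraries. Among Paneth, goblet-like, TA-like and enterocyte-like cells, Paneth cells remained lowest in every library. Paneth cells gave 47.8% and 54.3% of all class II UMIs in fl/fl libraries and 19.2% and 25.2% in IEC-KO libraries, where they were 28.3% and 32.4% of cells against 57.9% and 62.4%.

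Gene by gene, levels were compared in sums over each class with TMM scaling, which sets the bulk of genes equal between libraries. Of the surface chains, H2-Ab1 encodes the beta chain of I-A. In enterocyte-like cells it was at 205 and 145 CPM in fl/fl and at 286 and 261 in IEC-KO libraries (log2 difference 0.63). In TA-like cells it was at 180 and 168 against 230 and 221 (0.37). In goblet-like cells it was at 154 and 149 against 133 and 131 (-0.20). IEC-KO libraries were higher in the first 2 classes and lower in the third, with no overlap.

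H2-Aa encodes the alpha chain that pairs with it. In enterocyte-like cells H2-Aa stood at 84.2 and 70.8 in fl/fl and at 135 and 125 in IEC-KO libraries (0.74). In goblet-like cells it was at 45.8 and 33.6 against 27.8 and 30.6 (-0.45). H2-Eb1, the beta chain of I-E, was at 73.7 and 52.9 against 97.2 and 110 in enterocyte-like cells (0.70). Both genes were thus high in IEC-KO enterocyte-like cells.

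Cd74, the invariant chain, was at 812 and 621 in enterocyte-like cells of fl/fl and at 1136 and 972 of IEC-KO libraries (0.55). In TA-like cells it was at 576 and 570 against 780 and 688 (0.36). In goblet-like cells it was at 310 and 290 against 237 and 220 (-0.39). In Paneth cells it was at 88.0 and 88.4 against 81.5 and 80.5 (-0.12). The IEC-KO libraries were lower for Cd74 in goblet-like and Paneth cells on this scale. The 7 genes did not all follow Cd74 in Paneth cells, where 2 were above in IEC-KO libraries and 2 below.

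Of the loading genes, H2-DMb1 was at 35.0 and 27.2 in fl/fl enterocyte-like cells and at 44.1 and 45.0 in IEC-KO ones (0.50). H2-DMa was at 57.3 and 52.9 against 76.6 and 66.4 (0.37). Ciita passed the filter on low counts only in Paneth cells, where it had 44 and 30 UMIs in all and levels of 0.22 and 0.34 against 0.30 and 0.18, which overlap.

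**Figure D4:**
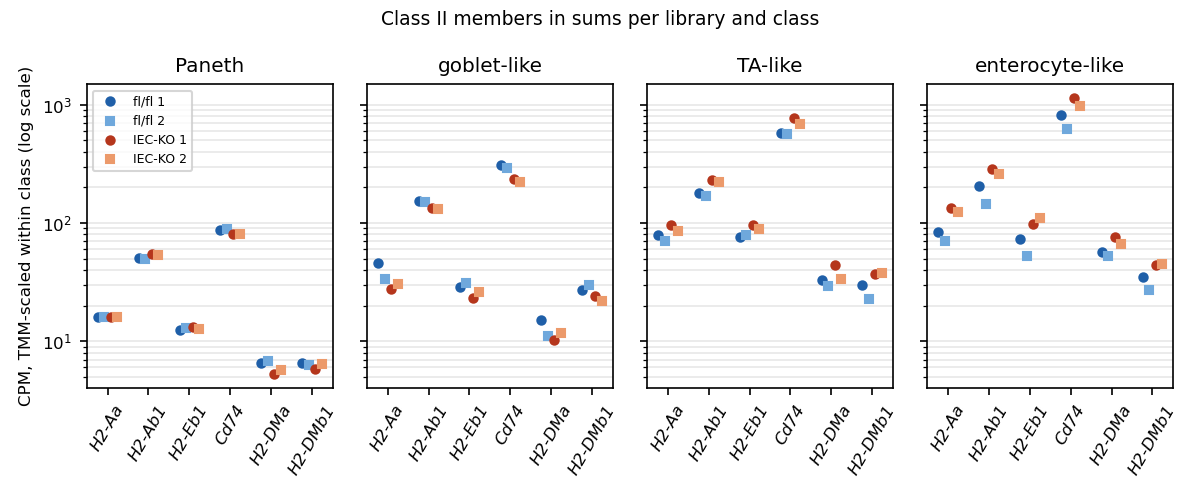
TMM-scaled level in CPM of each class II gene except Ciita in sums over Paneth, goblet-like, TA-like and enterocyte-like cells, 1 point per library on a log axis. Cd74 is the highest gene in each panel, and the IEC-KO points of enterocyte-like cells lie above the fl/fl points for the surface, invariant and loading chains.

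In enterocyte-like cells the libraries of the genotypes did not overlap for 6 of 6 members that passed the filter, all higher in IEC-KO, where 43.0% of 8326 genes did not overlap in either direction. In TA-like cells 6 of 6 had both IEC-KO libraries above both fl/fl libraries, where 25.0% of 10538 genes did, and with library size alone 5 of 6, where 18.5% did. In goblet-like cells 5 of 6 had both IEC-KO libraries below, where 26.0% of 10158 genes did. In Paneth cells 2 of 7 were above and 2 of 7 below, where 35.2% and 35.8% of 12696 genes were. Since the members were chosen on these contrasts, nothing is read from the counts. Among the 8144 genes tested in both classes, 3.49% lay below in goblet-like and above in enterocyte-like cells, as 5 members did. With library size alone 6 of 7 members were above in Paneth cells, where 81.6% of genes were, and the median log2 difference of the members moved from -0.05 to 0.65 while that of all genes moved to 0.70.

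The genes did not keep the same proportions in every cell group. In the cluster led by Fabp6 and Slc51b there were 0.21, 0.18, 0.24 and 0.24 H2-Ab1 UMIs per Cd74 UMI (the fl/fl libraries first). In Paneth cells there were 0.57, 0.56, 0.67 and 0.66, and in the goblet-like cluster led by Zg16 and Gsta4 0.74, 0.69, 0.79 and 0.98. In all 4 libraries both groups with low Cd74 had more H2-Ab1 per Cd74 UMI than the Fabp6 cluster.

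The alpha chain shared this difference in Paneth cells but not in the Gsta4 cluster. H2-Aa UMIs per Cd74 UMI were 0.11, 0.13, 0.13 and 0.14 in the Fabp6 cluster and 0.18, 0.18, 0.20 and 0.20 in Paneth cells. They were 0.11, 0.06, 0.11 and 0.17 in the Gsta4 cluster, so the clusters overlapped. H2-Aa UMIs per H2-Ab1 UMI were 0.52, 0.73, 0.54 and 0.57 in the Fabp6 cluster and 0.15, 0.09, 0.14 and 0.17 in the Gsta4 cluster. In the latter, H2-Aa was counted far less often than its partner chain. Free RNA of 1 source would add these genes in 1 ratio to all groups of a library, and its part in these ratios was not tested.

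**Figure D5:**
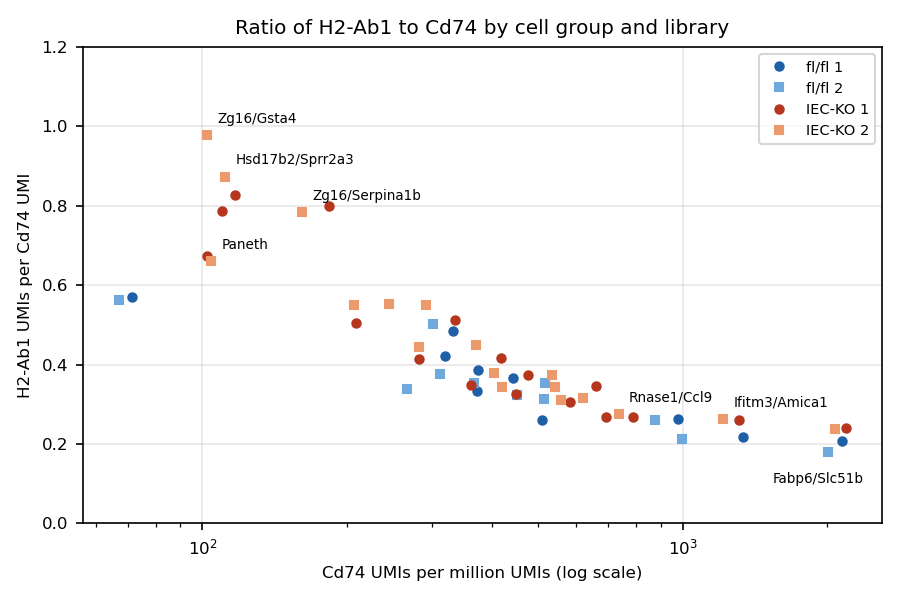
H2-Ab1 UMIs per Cd74 UMI against the Cd74 level in CPM (log axis) for each cell group and library with at least 100 Cd74 UMIs. The Fabp6 cluster lies at the lower right with ratios of 0.18 to 0.24, and the groups low in Cd74, such as Paneth cells at 0.56 to 0.67, lie at the upper left.

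Cells with Cd74 more often had H2-Ab1 as well. The share of thinned cells with both, divided by the product of the single shares, was 1.34, 1.33, 1.18 and 1.17 in TA-like cells and 1.42, 1.33, 1.24 and 1.24 in enterocyte-like cells. In the Fabp6 cluster, where at least 96.8% of cells had Cd74, it was 1.02, 1.00, 1.01 and 1.03. The ratio cannot exceed the inverse of the share with Cd74, and it was at that ceiling in all 4 libraries. Every thinned cell with H2-Ab1 there also had Cd74, so the ratio cannot be set against those of the other classes. TA-like and enterocyte-like cells held 3 and 2 clusters of different level, whose part in this ratio was not tested. Per cell, the 10% of TA-like cells with most held 47.6%, 44.8%, 38.7% and 37.8% of the class II UMIs of that class at 3500 UMIs per cell, and the highest single cell had 40.

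Across 34 sums of class and library, the genes whose log2 level was most like the summed members were, among 12138 genes, Prkar2a (Pearson's r 0.92), Mtx1 (0.91), Irf8 (0.91), Ydjc (0.90) and Fuom (0.88). Of the 10 most alike, 4 were also among the 10 by Spearman's rho, 5 in fl/fl libraries alone and 0 in IEC-KO libraries alone. The sums share libraries, depth and defensin content. Each member was also compared with the sum of the others: r was 0.98 for Cd74, 0.95 for H2-Eb1 and H2-Ab1, 0.92 for H2-Aa, 0.86 for H2-DMb1, 0.71 for H2-DMa and 0.56 for Ciita.

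The 23 marker genes of immune cells summed to 6.72 to 10.4 CPM in enterocyte-like and 8.74 to 12.5 CPM in TA-like cells. In the Fabp6 cluster, where class II was highest, they summed to 22.1 and 24.3 CPM in fl/fl (12 and 9 UMIs) and to 4.03 and 13.2 CPM in IEC-KO libraries (3 and 10 UMIs). Their part in the class II level was not tested. In Paneth cells they summed to 40.1 and 31.0 CPM in fl/fl and 18.6 and 14.8 CPM in IEC-KO libraries, and most of that was Lyz2, a near copy of Lyz1 (3504 of 3845 UMIs in the first fl/fl library). In Paneth cells of that library 9 of the 23 genes were at 0, Cd3e, Cd3g, Itgax and Flt3 among them. Others were counted, such as Tyrobp (83 UMIs), C1qa (59), Fcer1g (54), Cd79b (44) and Cd68 (36). Cells with a UMI of any of 13 lineage genes were 5.81% and 6.28% of cells in fl/fl and 1.75% and 2.53% in IEC-KO libraries, and they held 7.08%, 8.52%, 2.75% and 3.32% of class II UMIs. These cells were counted without thinning, and a share of this kind rises with depth. Median UMIs were 22242 and 32549 in fl/fl against 6699.5 and 9717.5 in IEC-KO libraries, so the genotypes cannot be compared on it.

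Genes that serve class II presentation but were not used in the choice were tested with edgeR's quasi-likelihood test on sums per library (Benjamini-Hochberg adjustment over all genes, adjusted p under 0.05). In Paneth cells 5 of 15 accessory genes were higher in IEC-KO libraries, where 21.2% of all genes were, and 4 were lower, where 21.0% were. Ctsl, which encodes cathepsin L, was at 4.83 and 4.93 in fl/fl and 14.8 and 12.1 in IEC-KO libraries (log2 fold change 1.45 ± 0.10 SE, edgeR adjusted p 3.6e-09). Ctss, encoding cathepsin S, which cuts the invariant chain in professional antigen-presenting cells, fell from 4.19 and 4.45 to 1.31 and 1.83 (-1.41 ± 0.14, edgeR adjusted p 3.6e-07). The cathepsin genes thus moved in opposite directions.

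The asparaginyl endopeptidase gene Lgmn rose by 0.99, and Nfyb, Ctsb and Creb1 by 0.39, 0.39 and 0.29, while Icosl fell by 1.01, Ifi30, the lysosomal thiol reductase gene, by 0.42 and March8 by 0.25. Icosl was near the limit of detection, with 156 UMIs in all cells. Ifi30 and March8 turned to 0.28 and 0.44 with library size alone. With 1 library left out the log2 fold change was -1.61 (without IEC-KO 2) to -0.72 (without IEC-KO 1, edgeR adjusted p 0.21) for Icosl and -0.39 (without IEC-KO 2) to -0.15 (without IEC-KO 1, edgeR adjusted p 0.26) for March8, and the 4 lower calls became 2 without fl/fl 2 or without IEC-KO 1. The median log2 fold change was 0.11 over the accessory list and -0.0024 over all genes.

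Elsewhere fewer accessory genes were called. In TA-like cells Lgmn (0.76) and Ctsl (0.74) were higher and none of 14 was lower, where 4.47% and 3.12% of genes were called. In goblet-like cells Ctsb was higher (0.27) and Ctss (-1.07) and Ifi30 (-0.29) lower among 14, where 5.16% and 4.94% were called, and DESeq2 called 0 of these 14. In enterocyte-like cells edgeR called 0 of 12 accessory genes, with 2 at an unadjusted p under 0.05 and 0 by DESeq2, where 1.23% of genes were called higher and 0.709% lower. In enteroendocrine-like and tuft-like cells edgeR and DESeq2 called 0 of 7 and 0 of 8, with 1 and 2 at an unadjusted p under 0.05, where 0.759% and 2.52% of genes were called by edgeR in either direction.

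Of the costimulatory genes Cd80, Cd86 and Cd40, only 12, 11 and 22 UMIs were counted in all cells. H2-Oa and H2-Ob, which encode the inhibitor of H2-DM, had 5 and 1. These genes were not detectable at a useful level at this depth.

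Class I genes, which present peptides from inside the cell, were called in both directions in Paneth cells, with 8 of 27 higher and 12 lower, where 21.2% and 21.0% of all genes were. H2-Q7 (1.18), H2-T23 (1.10) and H2-D1 (0.51) were among the higher and H2-T3 (-1.31), H2-Q2 (-1.06) and the immunoproteasome gene Psmb10 (-0.45) among the lower. Psmb10 turned to 0.25 with library size alone. Before TMM scaling, H2-T3 was at 2.64 to 4.56 CPM in Paneth and 82.9 to 98.0 in enterocyte-like cells. In the same order H2-Q2 was at 20.5 to 26.7 and 207 to 275, and H2-Q7 at 1.65 to 6.98 and 2.37 to 4.27. The part of free RNA in these calls was not tested. Class I genes resemble one another, so reads that fit more than 1 of them could affect their counts.

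In TA-like cells H2-Q7 (0.63) and H2-K1 (0.29) rose and H2-T3 (-0.76) fell among 25 class I genes, and in goblet-like cells H2-Q2 (-0.74), Psmb8 and Calr fell among 23. All genes were called higher and lower at 4.47% and 3.12% in TA-like and at 5.16% and 4.94% in goblet-like cells. DESeq2 called 0 of the 25 in TA-like cells. In enterocyte-like cells edgeR and DESeq2 called 0 of 22, with 2 at an unadjusted p under 0.05, where edgeR called 1.23% of genes higher and 0.709% lower. Of the interferon-gamma genes, edgeR called 0 of 11 in enterocyte-like cells, 1 of 11 in TA-like cells (Ifngr2, lower) and 1 of 12 in goblet-like cells (Ifngr1, higher). The shares of all genes called in these classes are those given above, and DESeq2 called 0 in each. Of 14 interferon-gamma genes tested in Paneth cells, Socs1 (0.85) and Irf8 (0.31) were higher and Ido1 (-2.30), Ifngr2 (-0.39) and Ifngr1 (-0.20, unlike in goblet-like cells) lower, where 21.2% and 21.0% of all genes were. After thinning to 3500 UMIs edgeR called 0 of the 8 that passed the filter. Ido1 was near the limit of detection, with 153 UMIs in all cells and 0.091 to 0.355 CPM in Paneth cells before TMM scaling. The calls for Socs1 and Ifngr1 were lost when 1 library was left out, with adjusted p up to 0.054 and 0.21, and library size alone turned both receptor genes, to 0.31 and 0.49.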

How the data were processed

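Per the labels, crypts were sequenced as 4 libraries with the 10x 3′ kit, and the submitters' processing notes name Cell Ranger 2.1.1 and mm10. The authors deposited raw UMI counts for 27998 genes per called cell, with no cell type labels. The counts were used as deposited. Positions of genes come from GENCODE M21 (GRCm38).

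For shares, each cell was thinned to 3500 UMIs, which left out no cell; an added alternative thinned them to 2000 UMIs of genes other than defensins. Cells under 20% Defa UMIs (22 Defa genes) were clustered with scanpy 1.11.5 (Leiden method as run by igraph), leaving out 28 defensins and all class II, class I and interferon-gamma genes. Doublet-like cells (30 neighbours, 0.8% per 1000 cells) were kept and left out as an alternative. For each class, counts were summed by library and tested with edgeR 4.0.16 (TMM, filterByExpr) after a check on simulated data, with DESeq2 1.42.0 as an alternative. Intervals are exact binomial (Clopper-Pearson, 95%) and cover counting error only. Likeness used log2 of CPM plus 1. With 2 libraries per genotype an exact permutation test cannot go below p = 0.333.

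Named genes are the 7 members, the accessory, class I and interferon-gamma lists and the 10 genes most like the members. The members and lists were chosen with earlier results of these data known.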

Additional observations from a re-analysis of the deposited data

Results flagged for a closer look

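In goblet-like cells both IEC-KO libraries were below both fl/fl libraries, and in enterocyte-like cells both were above, for 5 class II genes, as for 3.49% of the 8144 genes tested in both classes. The members were chosen on these contrasts, so nothing is read from this count. The difference between the classes was not tested. The log2 fold changes in goblet-like and enterocyte-like cells were -0.39 and 0.55 for Cd74, -0.45 and 0.74 for H2-Aa, -0.20 and 0.63 for H2-Ab1, -0.26 and 0.70 for H2-Eb1 and -0.30 and 0.50 for H2-DMb1. Goblet-like cells of the genotypes fell into different clusters, and whether that plays a part was not tested.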

How the results depend on the processing

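The share of cells with 2 or more class II genes (IEC-KO minus fl/fl, percentage points) was 6.22, -7.18, 12.2, 14.3, 12.5 and 3.18 (Paneth cells, then the goblet, TA, enterocyte, enteroendocrine and tuft classes). In that order it was, without thinning, -23.9, -23.5, -0.81, -1.95, -19.4 and -12.2. With 1 or more genes it was 12.5, -3.62, 9.98, 9.98, 19.8 and 14.9, and with 3 or more 1.29, -3.84, 7.70, 11.7, 7.43 and -5.20. At 2000 UMIs it was 2.53, -3.96, 10.4, 13.9, 0.67 and 5.04. At 2000 UMIs outside defensins, chosen after seeing the data, it was 0.43, -3.81, 8.80, 17.1, 5.46 and 7.09. With 1 lower limit of 9670 UMIs it was 6.67, 1.93, 12.6, 19.3, 15.1 and 15.7, where only 57 and 171 goblet-like and 23 and 50 enterocyte-like cells were left in IEC-KO libraries. With classes from marker sums, which also took in unnamed and Paneth-like cells, the values from goblet-like to tuft-like were -3.23, 13.7, -2.04, -15.4 and -1.94. Without doublet-like cells it was 5.61 in Paneth and -8.08 in goblet-like cells. For Paneth cells it was 4.13 at 50% Defa and 5.63 with the Defa symbols of the files, an alternative chosen after seeing the data. Leaving out 1 library gave 5.83 to 6.61, -7.96 to -6.40, 11.4 to 13.1, 13.6 to 15.0, 1.02 (without fl/fl 2) to 23.9 (without fl/fl 1) and 0.38 to 5.98. The causes were not tested.

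Counts of genes called by edgeR were 5346, 1026, 800, 161, 31 and 124 in the same order of classes. DESeq2 called 3537, 425, 229, 54, 21 and 57. After thinning they were 2178, 553, 296, 85, 15 and 52. Library size alone gave 9889 in Paneth (9465 higher and 424 lower, against 2686 and 2660) and 203 in tuft-like cells. It split TA-like calls into 326 and 536 (471 and 329), goblet-like calls into 796 and 331 (524 and 502) and tuft-like calls into 66 and 137 (70 and 54). No filter gave 82 in enteroendocrine-like cells. Leaving out 1 library gave 4303 to 4994, 564 to 1306, 344 to 1069, 58 to 134, 31 to 94 and 84 to 196.

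Accessory genes called in Paneth cells (9) were 4 after thinning and 14 with library size alone (13 higher and 1 lower). In goblet-like cells (3) they were 0 with DESeq2 and 1 after thinning, and 0 (without fl/fl 1) to 3 with a library left out. In TA-like cells (2) they were 1 with DESeq2, after thinning, without doublet-like cells and with library size alone, and 1 to 3 with a library left out. In tuft-like cells (0) library size alone gave 1. Class I genes called in Paneth cells (20) were 12 with DESeq2 and 11 after thinning, and library size alone gave 21 higher and 3 lower. In TA-like cells (3) they were 0 with DESeq2, 1 after thinning and 1 to 5 with a library left out. In enterocyte-like cells (0) they were 1 at 10 counts in every library, without doublet-like cells and with library size alone. Leaving out 1 library gave 1 to 8 in goblet-like (3) and 0 to 1 in tuft-like cells (0).

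Library size alone turned 11 Paneth calls, to 0.44 for March8, 0.49 for Ifngr1, 0.28 for Ifi30, 0.39 for Calr, 0.25 for Psmb10, 0.32 for Psme1, 0.53 for Psme2, 0.31 for Ifngr2, 0.47 for Tapbp, 0.44 for Psmb9 and 0.45 for Psmb8. Of 47 calls of listed genes, 22 were lost with DESeq2 and 16 without fl/fl 1. The deviations of genes from the means of their genotype correlated at -0.02 to 0.07 between samples of the same number. Whether samples of the same number share a batch was not tested. With the replicate block 1 of the 47 calls was lost. It called 62 enterocyte-like, 20 enteroendocrine-like and 47 tuft-like genes, fewer than without it. More were called in Paneth (2768 higher and 2742 lower, against 2686 and 2660), goblet-like (657 and 661, against 524 and 502) and TA-like cells (608 and 477, against 471 and 329). Class I calls with the block were 5 in TA-like and 6 in goblet-like cells. Of the 10 genes most like the members, 4 were shared by rank, 5 in fl/fl alone and 0 in IEC-KO alone.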
